A study of Mus musculus with 6 samples.

Results

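The potassium channel genes of the mouse retina were described in 6 RNA-seq libraries at postnatal day 7. The family was taken as every gene whose symbol starts with *Kcn* and whose level, averaged over the 6 libraries, was at least 0.1 FPKM (fragments mapped to a gene, scaled by transcript length and library size). Of 94 *Kcn* genes among the 21744 genes in the table, 80 met this minimum. They were grouped by the letter after *Kcn* and by structural class: 27 pore-forming voltage-gated subunits, 8 modulatory voltage-gated subunits, 12 inward rectifiers, 10 two-pore-domain channels, 8 calcium- or sodium-activated channels, 14 auxiliary subunits and 1 regulator. The study asked what the loss of the LIM homeodomain transcription factor LHX4 does to the developing retina. Each library came from the retinas of 1 mouse, and 3 mice were labelled control and 3 *Lhx4*-null. All had a mixed C57BL/6J and 129S6 background. In the study's null mice an *Lhx4* allele carrying a tdTomato knock-in was combined with a floxed allele, and Cre was expressed from *Six3* regulatory sequence in the retina. The labels do not say which alleles the control mice of these libraries carried, and both sexes were used in the study. Pigment epithelium was removed at dissection, so a library holds RNA from all the cells of the neural retina.

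Potassium channels let potassium ions cross the membrane along their gradient, and so set the resting potential and end electrical responses. Voltage-gated subunits open on depolarisation, inward rectifiers and two-pore-domain channels carry current near rest, and a further group opens on internal calcium or sodium. Auxiliary subunits carry no ions but change the gating or the surface delivery of the subunits that do. In the retina the family shapes the light responses of photoreceptors and the signals of bipolar and amacrine cells, and in Müller glia it buffers the potassium that active neurons release.

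What the pore-forming members share is the selectivity filter, the short stretch of the pore that discriminates potassium from sodium. Translated coding sequence was searched for a threonine or serine, then a valine, isoleucine, leucine, methionine or threonine, a glycine, a tyrosine, phenylalanine or leucine, and a glycine. All 55 voltage-gated, inward rectifier and calcium- or sodium-activated members held 1 such stretch, all 10 two-pore-domain members held 2, and the 14 auxiliary subunits and *Kcnrg* held 0. The filter codons of 6 members follow, since 5 of them had an unadjusted p under 0.05 between the groups and *Kcnv2* had the highest mean level of the family. Each line gives 30 coding bases, 5′ to 3′ on the gene's own strand, from the GRCm38 genome with GENCODE vM21 annotation, and the 15 capitals mark the filter codons.
*Kcnv2*: agcatctccACCGTGGGCTATGGAgacatg
*Kcng4*: tccatgacgACCGTGGGCTATGGGgacatg
*Kcng1*: accatgacaACCGTAGGCTACGGAgacatg
*Kcnh5*: agccttacaACCATAGGATTTGGAaacata
*Kcnj14*: acacagacgTCCATAGGCTATGGTgtgcgc
*Kcnk2*: actctgacgACCATTGGATTTGGAgactac
These bases lie in exon 2 of *Kcnv2* (chr19:27333645-27333674, plus strand), exon 3 of *Kcng4* (chr8:119625904-119625933, minus strand) and exon 3 of *Kcng1* (chr2:168262635-168262664, minus strand). They lie in exon 7 of *Kcnh5* (chr12:75087460-75087489, minus strand), exon 2 of *Kcnj14* (chr7:45819627-45819656, minus strand) and, for the second filter of *Kcnk2*, in exon 5 (chr1:189256575-189256604, minus strand).

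Whole-gene FPKM of *Lhx4*, the gene that the labels name, was higher in the libraries labelled null. Control replicates 1 to 3 held *Lhx4* at 20.9, 23.8 and 19.1 FPKM, and the replicates labelled *Lhx4* null held 31.2, 30.3 and 29.0 FPKM, which did not overlap and gave a log2 fold change of 0.51 (SE 0.091) with an adjusted p of 0.0978 (limma, Benjamini-Hochberg). FPKM over the whole gene does not show which exons the fragments came from. The 3 libraries are therefore called null-labelled, and every fold change is null-labelled over control on the log2(FPKM + 0.1) scale. Depth, read from the steps between low FPKM values, was 76.9 to 100% of the deepest library in the control group and 46.7 to 65.9% in the null-labelled group, so low values were coarser in the latter. Markers of retinal cell types were present in all libraries, and some lists moved with the labels. Of 12 bipolar cell markers, 11 were lower in the null-labelled libraries (10 at an unadjusted p under 0.05, 5 at an adjusted p under 0.05). The summed level of the 12 was 831 to 988 FPKM in control and 628 to 710 FPKM in null-labelled libraries. Of this sum *Otx2*, the 1 marker with a positive fold change (0.07), gave means of 315 and 336 FPKM. Of 10 cone markers 7 were higher (4 at an unadjusted p under 0.05) and 3 lower (2 at an unadjusted p under 0.05). The largest changes of that list were negative, in *Opn1mw* (fold change −1.77) and *Arr3* (−1.27). Only *Opn1sw*, which was higher (0.88), had an adjusted p under 0.05. The cone markers summed to 368 to 515 FPKM in control and 582 to 701 FPKM in null-labelled libraries. Of 9 amacrine cell markers tested 8 were higher, and of 10 Müller glia markers 8 were higher. Of 10 pigment epithelium markers 9 were higher, with summed levels of 25.3 to 50.3 FPKM in control and 54.2 to 93.0 FPKM in null-labelled libraries. Lens markers summed to 1.36 to 15.5 FPKM in control and 1.4 to 8.87 FPKM in null-labelled libraries, with control replicate 2 the highest. Of the 110 marker genes, 0 were at 0 FPKM in every library. In whole retina, fewer cells of a type and less RNA per cell cannot be told apart, and this holds for every level given here.

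No potassium channel gene passed the test across all genes. Among 15200 genes tested, 34 (0.224%) had an adjusted p under 0.05 (limma, Benjamini-Hochberg), and 0 of these were *Kcn* genes, the lowest adjusted p of a member being 0.168 for *Kcnab1*. At an unadjusted p under 0.05, 8 members (10%) were lower in the null-labelled libraries, where 3.55% of all genes tested were, and 4 members (5.0%) were higher, where 4.60% of all genes were. All null-labelled libraries lay below all control libraries for 7 members (8.75%), against 6.13% of all genes, and above them for 8 members (10%), against 8.10% of all genes. The fold change was negative for 54 of the 80 members (67.5%, against 46.7% of all genes tested) and positive for 26. Its median was −0.07, beside 0.01 over all genes tested. For 69 members it lay within 0.5 of 0, and for 3 it exceeded 1 in size. The 95% interval of the fold change lay within 1 of 0 for 65 members and within 0.5 for 26. With 3 libraries a group, a change of 0.5 is therefore not excluded for most of the family. An exact permutation test of a single gene in this design cannot give a two-sided p under 0.1.

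**Figure D1:**
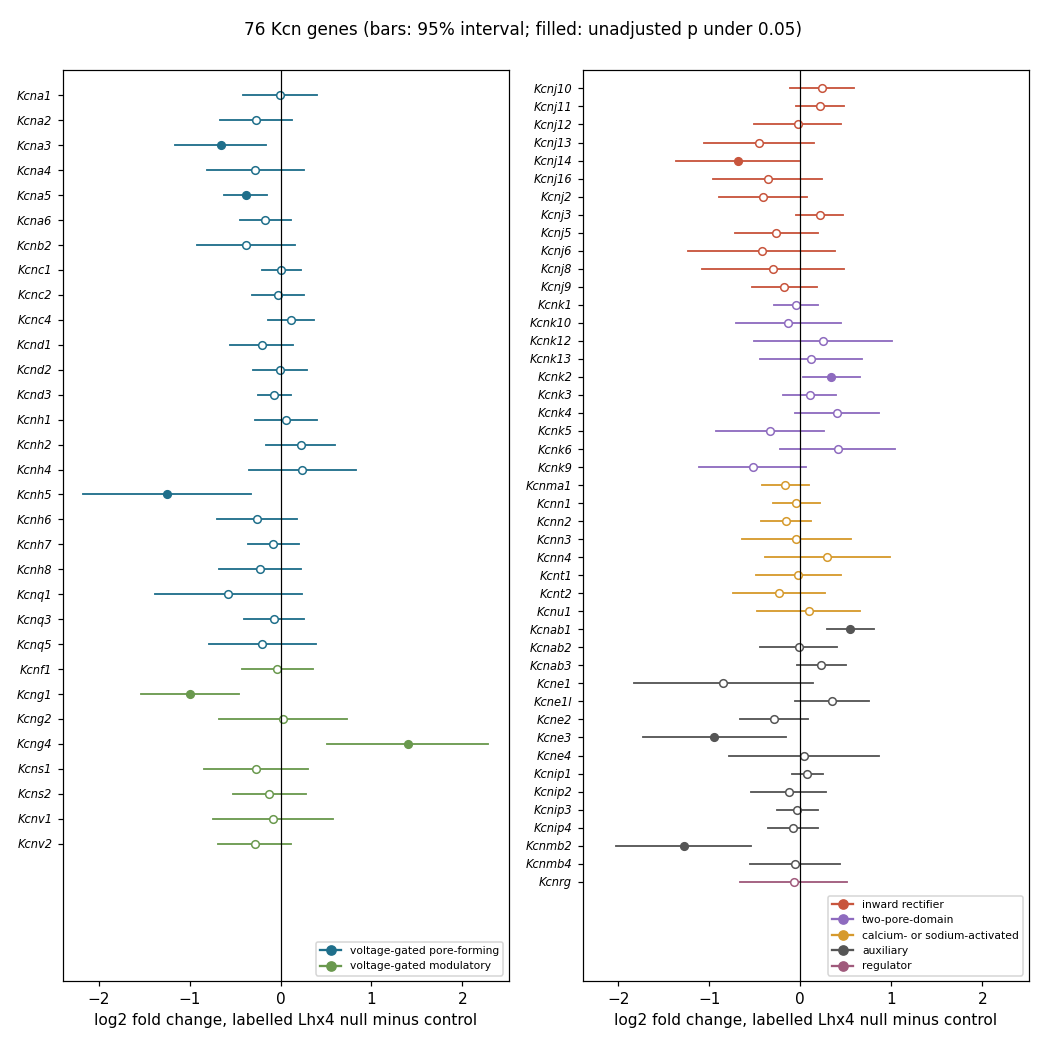
Log2 fold change of 76 *Kcn* genes, null-labelled over control, by structural class, with bars for the 95% interval and filled points for an unadjusted p under 0.05. Most points lie within 0.5 of 0, and *Kcnmb2*, *Kcnh5* and *Kcng4* lie beyond 1.

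These counts moved with single libraries. The count of lower members is 8 of 80 with all 6 libraries. It was 13 without null-labelled replicate 1, and 5 both without control replicate 2 and without null-labelled replicate 2. The count of higher members was 7 without null-labelled replicate 3 and 2 without control replicate 2 or without null-labelled replicate 2. Counts over all 15200 genes tested moved too. For lower genes, 540 became 916 without null-labelled replicate 1, 577 without control replicate 2 and 399 without null-labelled replicate 2. For higher genes, 699 became 978 without null-labelled replicate 3, 645 without control replicate 2 and 442 without null-labelled replicate 2. *Kcna5*, *Kcng1*, *Kcnmb2*, *Kcnab1* and *Kcng4* kept an unadjusted p under 0.05 whichever library was left out.

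The summed level of the family overlapped between the groups, at 430, 474 and 419 FPKM in control and 461, 418 and 398 FPKM in null-labelled libraries. The means were 441 ± 28.9 and 426 ± 32.1 FPKM (SD, n = 3 each). Pore-forming voltage-gated subunits gave 40.1% of this sum, auxiliary subunits 31.8%, modulatory subunits 11.2%, calcium- or sodium-activated channels 7.85%, inward rectifiers 4.93% and two-pore-domain channels 4.07%. *Kcnv2* and *Kcnab2* had the highest means, and their libraries overlapped, so their order is not resolved. The median member was at 1.73 FPKM, where the median gene tested was at 8.72 FPKM. There were 13 members over 10 FPKM and 27 under 1 FPKM.

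**Figure D2:**
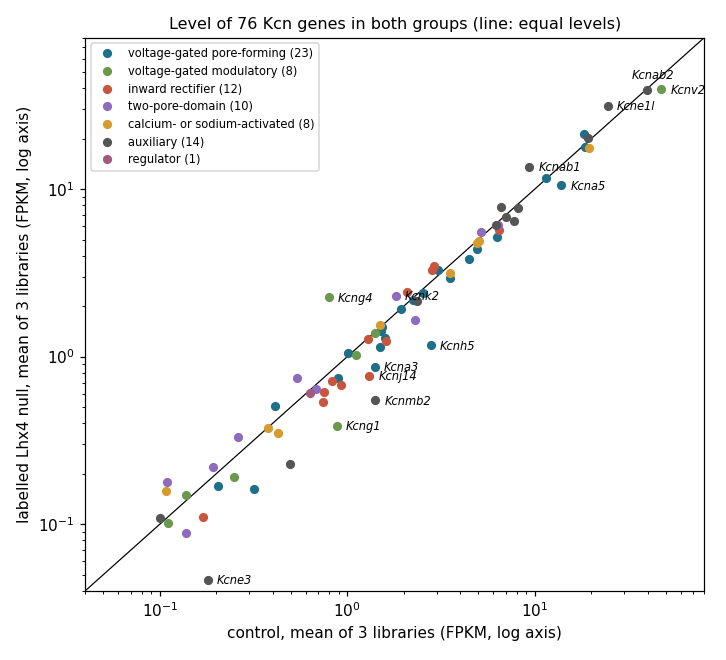
Mean FPKM of 76 *Kcn* genes in the control libraries (horizontal) and the null-labelled libraries (vertical), both axes logarithmic, with the line of equal level. Most genes lie along the line, and those farthest from it (*Kcng4*, *Kcnh5*, *Kcng1*, *Kcnmb2* and *Kcne3*) have mean levels under 3 FPKM in both groups.

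The highest mean of the family belonged to *Kcnv2* (chr19:27322588-27337179), which encodes a modulatory subunit of the potassium channels in photoreceptor inner segments. It was at 42.4, 54.5 and 44.8 FPKM in control and 51.6, 33.8 and 32.8 FPKM in null-labelled libraries. Null-labelled replicate 1 lay among the controls and the other 2 lay below them, so the groups overlapped, and the fold change was −0.29 (95% interval −0.69 to 0.12). As shares of the control mean, the null-labelled libraries were at 109%, 71.5% and 69.4%. The summed level of 10 rod markers was at 102%, 75.3% and 81.0% of its control mean in the same libraries, and 9 of the 10 were lower, 1 at an unadjusted p under 0.05. Their part in the result was not tested.

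**Figure D3:**
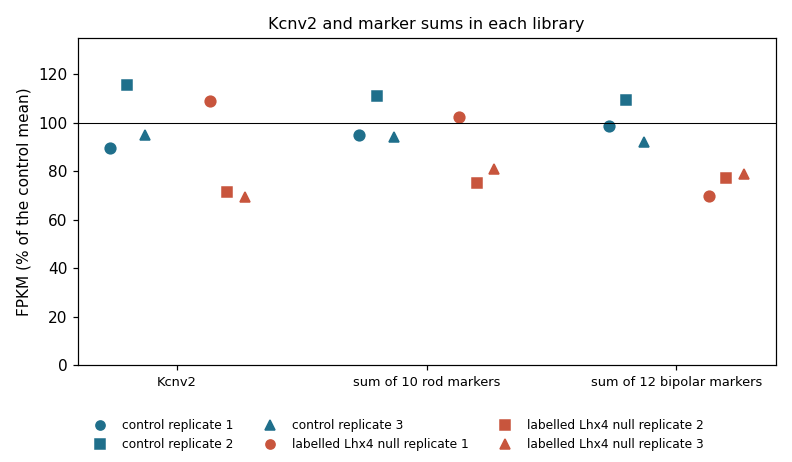
Level of *Kcnv2* and the summed rod and bipolar cell markers in each library, as a percentage of the control mean (line at 100%). In null-labelled replicate 1, *Kcnv2* is at 109% and the rod sum at 102%. In replicates 2 and 3, *Kcnv2* and the rod sum lie between 69.4% and 81.0%. The bipolar sum is at 69.6 to 78.6% in all 3. It includes *Otx2*, the 1 marker of its list with a positive fold change, at 260, 375 and 373 FPKM in null-labelled replicates 1 to 3.

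Most pore-forming voltage-gated subunits had intervals that spanned 0. Of the 27, 19 had negative and 8 positive fold changes, with a median of −0.08. At an unadjusted p under 0.05, 4 (14.8%) were lower, against 3.55% of all genes tested, and 1 (3.70%) was higher, against 4.60%. *Kcnh2*, a delayed rectifier known from the heart, was at 16.6, 21.4 and 16.7 FPKM in control and 24.8, 23.2 and 16.4 FPKM in null-labelled libraries, which overlapped (fold change 0.22). The A-type subunit *Kcnd3* was at 18.6 ± 0.305 and 17.8 ± 1.48 FPKM (SD, n = 3 each; fold change −0.07, 95% interval −0.25 to 0.12), so its interval leaves room for changes of no more than 0.25 in size.

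*Kcna5* (chr6:126532551-126535412), a delayed rectifier subunit of the *Shaker* subfamily, was at 12.7, 15.5 and 13.3 FPKM in control and 11.3, 10.7 and 9.64 FPKM in null-labelled libraries. The groups did not overlap, and the fold change was −0.38 (95% interval −0.62 to −0.15, unadjusted p = 0.0055, adjusted p = 0.381, limma, Benjamini-Hochberg). *Kcna3* (chr3:107036169-107038070), from the same subfamily and known for its role in T lymphocytes and neurons, was at 1.36, 1.35 and 1.49 FPKM in control and 1.03, 0.584 and 0.996 FPKM in null-labelled libraries. These also did not overlap (fold change −0.66, 95% interval −1.16 to −0.16, and −0.43 without null-labelled replicate 2). The subfamily has 9 members here, with a median fold change of −0.17. *Kcna1*, which lies 105.0 kb from *Kcna5* on chromosome 6, had a fold change of −0.01, and *Kcna2*, 63.1 kb from *Kcna3* on chromosome 3, had −0.27.

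*Kcnh5* (chr12:74897220-75177332), an ether-à-go-go subunit expressed in brain, had the lowest fold change of any pore-forming member. It was at 3.68, 1.66 and 3.02 FPKM in control and 0.982, 0.610 and 1.93 FPKM in null-labelled libraries. Control replicate 2 lay under null-labelled replicate 3, so the groups overlapped. The fold change was −1.25 (95% interval −2.17 to −0.32, unadjusted p = 0.0144, adjusted p = 0.497, limma, Benjamini-Hochberg), and −0.89 without null-labelled replicate 2, at an unadjusted p of 0.0575.

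The modulatory subunits form no channel alone and act only in assemblies with pore-forming ones, and 2 of the 8 gave the class its most positive and most negative values. *Kcng4* (chr8:119623854-119635680), expressed in mouse retina in alpha ganglion cells and in a type of cone bipolar cell, was at 0.649, 1.26 and 0.478 FPKM in control and 3.57, 1.49 and 1.74 FPKM in null-labelled libraries. The groups did not overlap, and null-labelled replicate 1 was far above the rest. The means were 0.795 ± 0.410 and 2.27 ± 1.13 FPKM (SD, n = 3 each), a fold change of 1.4 (95% interval 0.51 to 2.29, unadjusted p = 0.0065, adjusted p = 0.391, limma, Benjamini-Hochberg), the highest in the family. It was 1.03 without null-labelled replicate 1. Beside it, the 10 ganglion cell markers (4 with negative and 6 with positive fold changes) summed to 326 to 366 FPKM in control and 331 to 357 FPKM in null-labelled libraries, and the bipolar sum was lower as given above; their part in the result was not tested. *Kcng1* (chr2:168260117-168281736), of the same subfamily, had the opposite sign. It was at 0.640, 1.06 and 0.935 FPKM in control and 0.481, 0.338 and 0.342 FPKM in null-labelled libraries, without overlap (fold change −1.0, 95% interval −1.54 to −0.45, unadjusted p = 0.0027, adjusted p = 0.269, limma, Benjamini-Hochberg). *Kcng2*, the third of the subfamily, stood at 0.138 ± 0.0186 and 0.149 ± 0.0799 FPKM. *Kcnf1* (fold change −0.03) and *Kcns2* (−0.13), 2 further silent subunits, were near 1 FPKM in both groups.

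**Figure D4:**
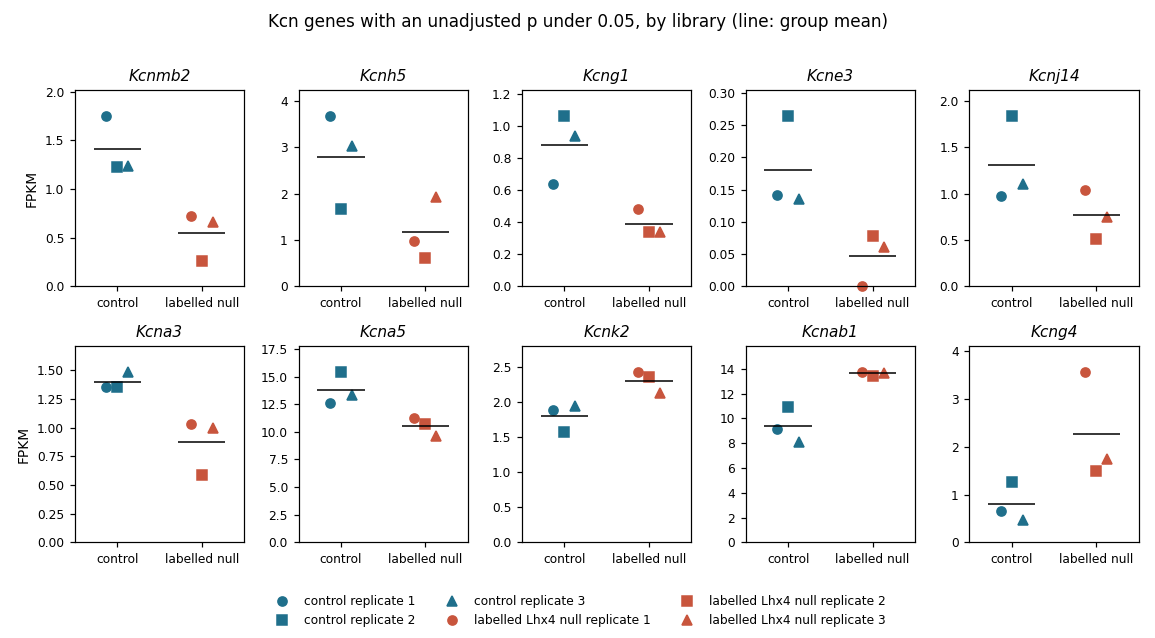
FPKM in each library (linear axes from 0, 1 panel per gene, line at the group mean) of 10 *Kcn* genes with an unadjusted p under 0.05, control and null-labelled. The groups are separate for 8 of them and overlap for *Kcnh5* and *Kcnj14*.

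The inward rectifiers had the lowest class median, −0.28, with 9 of 12 negative and 3 positive. They include the subunits of G protein-gated and ATP-sensitive channels and the main potassium conductance of Müller glia. Only *Kcnj14* (chr7:45816460-45824782), a strong rectifier of neurons, had an unadjusted p under 0.05. Its libraries were at 0.977, 1.84 and 1.10 FPKM in control and 1.04, 0.515 and 0.753 FPKM in the null-labelled group, which overlapped (fold change −0.69, 95% interval −1.37 to −0.02). Without control replicate 2 it was −0.43 at an unadjusted p of 0.165. The highest in the class was *Kcnj9*, a G protein-gated subunit, at 6.11, 7.97 and 5.37 FPKM in control and 6.37, 5.08 and 5.57 FPKM in null-labelled libraries. *Kcnj3*, a partner in such channels, was at 3.01, 2.79 and 2.65 FPKM in control and 3.48, 3.18 and 3.17 FPKM in null-labelled libraries. All 3 of the latter lay above the controls, with a fold change of 0.21 and a 95% interval that spans 0 (−0.05 to 0.47), and 31.1% of its exon bases overlap a gene on the opposite strand.

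Cell-type-linked inward rectifiers were read beside the markers of those cells. *Kcnj10*, the weakly rectifying channel of Müller glia, was at 2.83, 3.22 and 2.66 FPKM in control and 3.85, 3.76 and 2.78 FPKM in null-labelled libraries (fold change 0.24, 95% interval −0.12 to 0.59). The groups overlapped through null-labelled replicate 3. The 10 Müller glia markers summed to 874 to 963 FPKM in control and 1005 to 1060 FPKM in null-labelled libraries. Of this sum *Apoe*, the most abundant marker of the list, gave means of 288 and 368 FPKM. Of the 10 markers, 8 had positive fold changes (3 at an unadjusted p under 0.05) and 2 negative. *Kcnj13*, a channel of pigment epithelium, was at 0.806, 0.952 and 1.03 FPKM in control and 1.01, 0.557 and 0.469 FPKM in null-labelled libraries (fold change −0.46), against the higher pigment epithelium sum given above. Of its exon bases, 49.1% overlap a gene on the opposite strand, and whether fragments were assigned by strand is not given in the sources used here. *Kcnj8*, the pore of the ATP-sensitive channel in pericytes, was at 0.829, 0.880 and 0.780 FPKM in control and 0.920, 0.317 and 0.907 FPKM in null-labelled libraries, with replicate 2 of the latter alone low. Of 10 endothelium and pericyte markers, 9 had negative fold changes (1 at an unadjusted p under 0.05), with a list median of −0.16. Their sum was 73.9 to 90.5 FPKM in control and 80.2 to 92.6 FPKM in null-labelled libraries, of which *Kdr*, the 1 marker with a positive fold change, gave means of 38.6 and 48.2 FPKM. The part of these cells in the channel levels was not tested.

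The two-pore-domain channels had the highest class median, 0.11, with 6 of 10 positive. Every null-labelled library lay above every control library for 3 members (30%), *Kcnk2*, *Kcnk4* and *Kcnk6*, against 8.10% of all genes tested. Of these, *Kcnk6* was near the minimum level, at a mean of 0.144 FPKM (95% interval of the fold change −0.22 to 1.04). Every null-labelled library lay below every control library for 1 member (10%), against 6.13% of all genes. That member, *Kcnk5*, was also near the minimum, at a mean of 0.113 FPKM. The class has 10 members, so these shares rest on few genes. *Kcnk2* (chr1:189207930-189402273), a background channel opened by stretch, heat and lipids, was at 1.90, 1.58 and 1.95 FPKM in control and 2.44, 2.36 and 2.13 FPKM in null-labelled libraries. The fold change was 0.34 (95% interval 0.03 to 0.66, unadjusted p = 0.0373, adjusted p = 0.595, limma, Benjamini-Hochberg), and 0.25 at an unadjusted p of 0.12 without control replicate 2. Of its exon bases, 12.2% overlap a gene on the opposite strand. *Kcnk4*, of the same mechanosensitive group, was at 0.514, 0.642 and 0.458 FPKM in control and 0.874, 0.680 and 0.669 FPKM in null-labelled libraries (fold change 0.40, 95% interval −0.06 to 0.86), and 13.1% of its exon bases overlap another gene on the same strand. *Kcnk10*, the remaining gene of that group, had a fold change of −0.13, so its sign was not shared. The most abundant of the class, *Kcnk1* and the acid-sensitive *Kcnk3*, had fold changes of −0.05 and 0.10.

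Calcium- and sodium-activated channels gave no member with an unadjusted p under 0.05. *Kcnma1*, the large-conductance calcium-activated channel, was at 19.9, 18.9 and 19.6 FPKM in control and 17.3, 14.9 and 20.3 FPKM in null-labelled libraries (fold change −0.16, 95% interval −0.42 to 0.09). The small-conductance channel *Kcnn1* was at 4.91 ± 0.544 and 4.74 ± 0.108 FPKM, and the sodium-activated *Kcnt1* at 5.02 ± 1.25 and 4.92 ± 1.05 FPKM (SD, n = 3 each).

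In contrast to its pore, an auxiliary subunit of the large-conductance channel had the lowest fold change in the family. *Kcnmb2* (chr3:31902507-32200180), which makes that channel inactivate, was at 1.76, 1.23 and 1.24 FPKM in control and 0.723, 0.261 and 0.667 FPKM in null-labelled libraries. The groups did not overlap, and the fold change was −1.28 (SE 0.32, 95% interval −2.03 to −0.54, unadjusted p = 0.0039, adjusted p = 0.330, limma, Benjamini-Hochberg). *Kcnmb4*, the neuronal subunit for the same pore, was more abundant, at 6.20 ± 0.708 and 6.11 ± 1.83 FPKM, with a fold change of −0.06, and 31.5% of its exon bases overlap a gene on the opposite strand. The difference between the fold changes of *Kcnmb2* and *Kcnma1* was not tested.

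The cytoplasmic β subunits of *Shaker* channels were abundant. *Kcnab1* (chr3:65109384-65378223), which confers fast inactivation on them, was at 9.13, 10.9 and 8.06 FPKM in control and 13.8, 13.4 and 13.7 FPKM in null-labelled libraries. All 3 null-labelled libraries lay above the controls and close together. The fold change was 0.55 (SE 0.11, 95% interval 0.29 to 0.81, unadjusted p = 0.0012, adjusted p = 0.168, limma, Benjamini-Hochberg). *Kcnab3* was at 6.58 ± 0.365 and 7.78 ± 1.08 FPKM (fold change 0.23, 95% interval −0.04 to 0.50), and *Kcnab2*, at 37.4, 49.2 and 32.7 FPKM in control and 46.2, 41.3 and 30.3 FPKM in null-labelled libraries, had a fold change of −0.02.

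The KChIP proteins, calcium-binding partners of A-type channels, overlapped between the groups. *Kcnip1* was at 19.1 ± 0.562 and 20.2 ± 1.28 FPKM (SD, n = 3 each; fold change 0.08, 95% interval −0.10 to 0.25). *Kcnip3*, whose protein marks a subtype of OFF-cone bipolar cell in the study, was at 7.38, 7.41 and 6.26 FPKM in control and 6.87, 6.61 and 7.04 FPKM in null-labelled libraries. Its groups overlapped and its fold change was −0.03 (95% interval −0.26 to 0.19), beside the lower bipolar sum. By staining of the protein, the study found that subtype nearly absent from the adult null retina. The level here is RNA of the whole retina at postnatal day 7, so it is not a measure of that subtype.

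The KCNE proteins, which cross the membrane once, ranged from abundant to barely detected. *Kcne1l*, the X-linked member now also called *Kcne5*, was the fourth highest gene of the family, at 27.4, 19.8 and 26.4 FPKM in control and 24.2, 38.2 and 31.8 FPKM in null-labelled libraries, which overlapped (fold change 0.35, 95% interval −0.06 to 0.76). *Kcne3* (chr7:100176502-100184869) was at 0.141, 0.265 and 0.135 FPKM in control and 0, 0.0787 and 0.0612 FPKM in null-labelled libraries. The groups did not overlap, but the library listed at 0 was null-labelled replicate 1, the shallowest of the 6. The fold change was −0.95 with a pseudocount of 0.1, −0.17 with 1 and −2.19 with 0.01 FPKM, so its size is set by that choice. *Kcne2* and *Kcne1*, 47.9 kb apart on chromosome 16, had fold changes of −0.29 and −0.85, with overlapping groups for both.

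At the lower limit, *Kcne4* (0.105 FPKM) and *Kcnv1* (0.106 FPKM) were the members just inside the minimum, and *Kcnj15* (0.0808 FPKM) and *Kcnk15* (0.058 FPKM) were just outside it. *Kcnrg*, a cytoplasmic regulator that holds no filter, was at 0.633 ± 0.136 and 0.604 ± 0.177 FPKM. *Kcnu1*, a pore gene known from sperm, was at 1.5 ± 0.485 and 1.55 ± 0.195 FPKM.

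Proteins that bind potassium channels were listed apart, among them the A-type partners *Dpp6* and *Dpp10*, the sulfonylurea receptors, the *Dlg* scaffolds and calmodulin genes. Of 22 listed, 21 were tested, and 13 had negative and 8 positive fold changes, all within 0.5 of 0, with a median of −0.03. Only *Abcc8*, the sulfonylurea receptor that completes the neuronal ATP-sensitive channel, had an unadjusted p under 0.05 (fold change −0.38, unadjusted p = 0.0457, adjusted p = 0.607, limma, Benjamini-Hochberg), and all its null-labelled libraries lay below the controls. *Kcnj11*, the pore that pairs with it, was at 2.10, 2.08 and 2.09 FPKM in control and 2.30, 2.46 and 2.57 FPKM in null-labelled libraries, without overlap and with the opposite sign (fold change 0.22, 95% interval −0.05 to 0.48). *Kcnj11* was singled out after its values were seen.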

How the data were processed

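Retinal RNA was made into TruSeq libraries, 1 per mouse, and sequenced as paired-end reads. The authors aligned reads to GRCm38 with TopHat2 and estimated levels with Cufflinks (per the labels; versions are not given in the sources used here), and deposited FPKM per gene and library. FPKM is already divided by depth and gene length, so no count model was used. Each gene that averaged 0.1 FPKM or more across all 6 libraries was tested on log2(FPKM + 0.1) with limma 3.58.1 (R 4.3.3, empirical Bayes with a mean-variance trend), and p-values were adjusted by Benjamini-Hochberg over all 15200 genes. The script was tested on simulated data. Relative depth was read from the spacing of low FPKM values. Positions and exon overlaps came from GENCODE vM21, in which all 94 *Kcn* identifiers were found with the same symbol. Figures were drawn with matplotlib 3.10.9 (Python 3.11.15).

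Genes named with values were *Lhx4*, every member with an adjusted or unadjusted p under 0.05, the highest members of each class and subfamily, those with a known retinal cell type, those at the threshold, and associated genes with an unadjusted p under 0.05. A few further members were named after their values were seen, as class neighbours or pairs (*Kcnab3*, *Kcng2*, *Kcna1*, *Kcna2*, *Kcnk4*, *Kcnk5*, *Kcnk6*, *Kcnk10*, *Kcnmb4*, *Kcne1*, *Kcne2*, *Kcnj11*). By name, 4 members are not reported here, though family counts and sums include them. The members and all lists were chosen with earlier results of these data known. Marker lists covered rods, cones, bipolar, amacrine, ganglion and horizontal cells, Müller glia, astrocytes, microglia, endothelium and pericytes, pigment epithelium and lens. Of those not described with the results, horizontal cell markers had 5 of 6, microglia markers 8 of 10 and astrocyte markers 2 of 4 positive fold changes, and of 7 lens markers tested 3 did. Replicate libraries correlated at 0.982 to 0.992 across genes and none was a duplicate. Other settings tried were pseudocounts of 1 and 0.01, no minimum level or one of 1 FPKM, another scaling (median of ratios), no trend, a replicate block, and leaving out each library in turn.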

Additional observations from a re-analysis of the deposited data

How the results depend on the processing

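No member had an adjusted p under 0.05 in any of the 13 other settings (limma, Benjamini-Hochberg), which for all genes gave between 0 calls (no filter) and 35 (pseudocount of 1 FPKM), against 34. The count of members lower at an unadjusted p under 0.05, 8, was 4 with a mean of at least 1 FPKM, which leaves *Kcne3*, *Kcng1* and *Kcnmb2* untested and puts *Kcnj14* at an unadjusted p of 0.0533, and 5 to 13 when 1 library was left out. The count of higher members, 4, was 8 without the mean-variance trend, 2 with the replicate block, and 2 to 7 when 1 library was left out. Over all genes tested, the lower count, 540, was 462 of 12485 with a mean of at least 1 FPKM and 306 to 916 when 1 library was left out. The higher count, 699, was 677 without the trend, 608 with the replicate block and 379 to 1066 when 1 library was left out. The median fold change of the members, −0.07, ran from −0.16 (without null-labelled replicate 1) to −0.026 (without control replicate 2). For channel-associated genes, the count of lower genes, 1, was 2 with no filter, 0 without the trend and 0 to 2 when 1 library was left out, and the count of higher genes, 0, was 0 to 1. Beyond the 3 members left untested, the causes were not tested. Replicate numbers are only names here: deviations of same-numbered libraries correlated at −0.13, −0.0002 and 0.16, so the replicate block is no paired analysis. The 12 members with an unadjusted p under 0.05 kept their sign in every setting in which they were tested. With 3 libraries a group, and null-labelled libraries at 46.7 to 65.9% of the deepest, differences among members under 1 FPKM are the least certain.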
